A study of Mus musculus with 13 samples.

Results

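The clustered protocadherin locus of the mouse was taken as 4 consecutive bins of 300 kb on chromosome 18 (GRCm38), with ends at 37200000, 37500000, 37800000 and 38100000, and was read with 3 flanking bins on each side. These 4 bins are among 9097 for which the percentage of 5-hydroxymethylcytosine (5hmC), an oxidised form of 5-methylcytosine produced by TET dioxygenases, was given in each of 13 breast tumours. The tumours, from FVB mice, were driven by PyMT, the middle T antigen of polyomavirus, and were profiled by shallow tet-assisted bisulfite sequencing (TAB-seq), which reads 5hmC as cytosine after all other cytosines have been converted. In the Phd2 model, mice of 16 weeks had the genotype PHD2+/+ (n = 3, called wild type here) or PHD2+/- (n = 4, heterozygous), without a plasmid. In the plasmid model, mice of 12 weeks had received a hydrodynamic injection of the empty PRRL2 plasmid (n = 3) or of PRRL2-sFlk1 (n = 3), which encodes a soluble VEGF receptor. By the labels, oxygenation is restored in heterozygous tumours, and hypoxia is deeper in sFlk1 tumours. They do not say which cells of a tumour carry the effect of either change, and age differs between the models, so groups were compared only within a model.

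Clustered protocadherins are cadherin-like adhesion proteins of the cell surface, best known from neurons, where different combinations of isoforms give cells distinct surface identities. Each isoform starts from its own promoter and first exon. In the Pcdha and Pcdhg clusters that exon is spliced to constant exons at the far end of the cluster, whereas Pcdhb genes are short and have no constant exons. CTCF, cohesin, DNA methylation by DNMT3B and the chromatin proteins SMCHD1 and SETDB1 are known to take part in the choice or silencing of these promoters. In several human cancers the cluster is known as a region of long-range DNA hypermethylation.

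The locus was selected on the 5hmC percentages of these same tumours, although its borders were set by position. Its levels and its shape are therefore given as a description, with no test. Read counts were not part of the values, so the depth behind each percentage is unknown. The mean over all 8576 bins kept ran from 2.18% to 3.17% in the 13 tumours, from Phd2 wild-type tumour 2 to heterozygous tumour 2. It was 2.34% ± 0.137 (SD, n = 3) in wild-type, 2.87% ± 0.265 (SD, n = 4) in heterozygous, 2.68% ± 0.158 (SD, n = 3) in empty vector and 2.46% ± 0.0670 (SD, n = 3) in sFlk1 tumours.

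By RefSeq annotation on GRCm38.p6, Pcdha holds 14 genes on chromosome 18 from 36930285 to 37188897. Their bodies overlap, because all share the constant exons, and are 44.0 to 257 kb long. Pcdhb holds 22 genes from 37264998 to 37521419, none of them longer than 5.27 kb. Pcdhg holds 22 genes, of which 21 are protein-coding, from 37661775 to 37841873. With each gene assigned to the bin that holds most of its body, the first bin (300 kb ending at 37200000) held all 14 Pcdha genes, Pcdha1 among them, and no other protein-coding gene. The second bin (37200001 to 37500000) held 19 Pcdhb genes, from Pcdhb1 on, with 3 predicted gene models that run across the clusters. The third bin (37500001 to 37800000) held 3 Pcdhb and 17 Pcdhg genes, Pcdhga1 the first of these, with Slc25a2, a mitochondrial carrier gene, and Taf7, which encodes a TFIID subunit. The fourth bin (300 kb ending at 38100000) held 5 Pcdhg genes, among them Pcdhgc3, Pcdhgc4 and Pcdhgc5, and the unrelated genes Diaph1, Hdac3, Rell2, Fchsd1 and Arap3. Each 5hmC value belongs to a whole bin, exons, introns and spacers together, and not to a promoter or a single isoform.

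The first 3 bins, called the low bins here, held under 2% 5hmC in every tumour. All 39 values (3 bins in 13 tumours) lay between 0.292% and 1.85%, and 27 of them were under 1%. In each of the 13 tumours the highest of these 3 bins lay below the lowest of the 6 flanking bins. The mean over the 3 low bins was 0.856% ± 0.138 (SD, n = 3) in Phd2 wild-type, 0.820% ± 0.119 (SD, n = 4) in heterozygous, 1.06% ± 0.0708 (SD, n = 3) in empty vector and 0.872% ± 0.322 (SD, n = 3) in sFlk1 tumours. The fourth bin, where Pcdhg ends and Diaph1 and Hdac3 begin, held 3.53%, 4.12%, 3.62% and 2.62% on average in the same order of groups. It lay above all 3 low bins in 13 of 13 tumours.

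**Figure D1:**
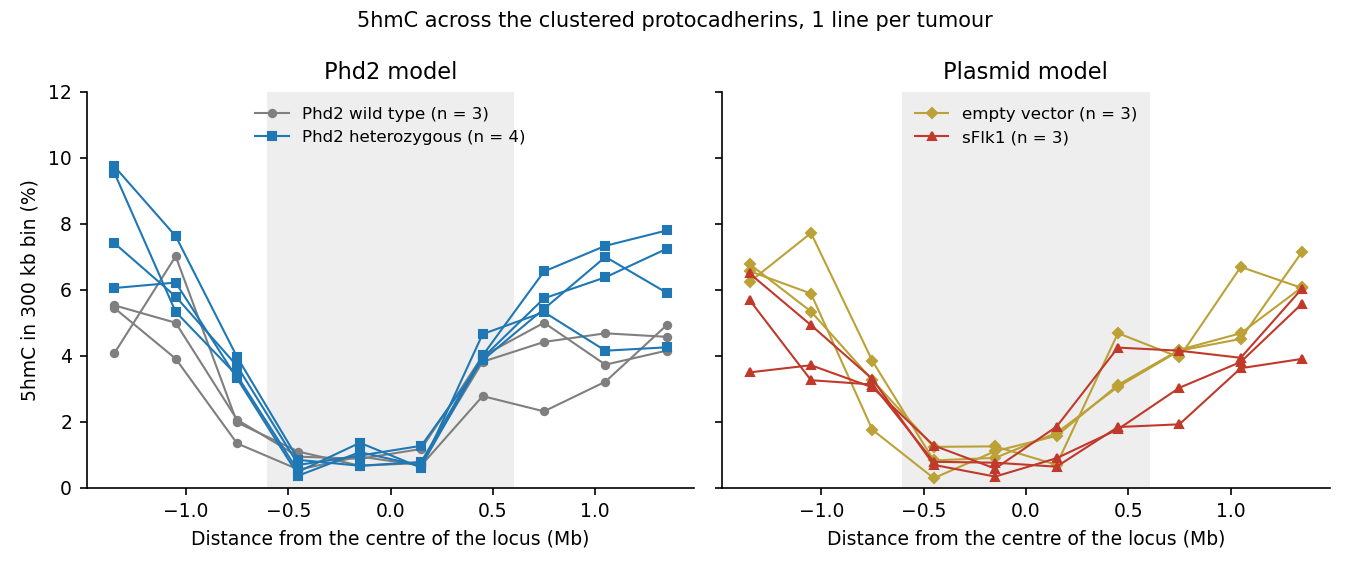
5hmC percentage (y axis) in the 10 bins of 300 kb, by distance from the centre of the 4 locus bins in Mb (x axis; grey band, the 4 locus bins), with a line per tumour and a panel per mouse model. The 3 low bins of all 13 tumours lie between 0.292% and 1.85%, and the lines part again over the flanking bins.

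At the Pcdha bin, which holds Pcdha1 to Pcdha12, Pcdhac1 and Pcdhac2, values in wild-type tumours were 0.945%, 0.554% and 1.10%, and in heterozygous tumours 0.371%, 0.847%, 0.696% and 0.490%. The ranges overlapped, with a mean of 0.865% ± 0.280 (SD, n = 3) against 0.601% ± 0.212 (SD, n = 4). Empty vector tumours held 0.830%, 1.24% and 0.292%, and sFlk1 tumours 0.696%, 0.789% and 1.28%. Empty vector tumour 3 gave the lowest value of this bin and sFlk1 tumour 3 the highest, so both ends of the range came from the plasmid model. The Pcdha bin was the lowest of the 3 in 6 of 13 tumours.

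At the Pcdhb bin, wild-type tumours held 0.880%, 0.949% and 0.669%, and heterozygous tumours 1.08%, 0.669%, 0.977% and 1.37%. The groups of the Phd2 model overlapped. Empty vector tumours held 0.909%, 1.26% and 1.11% and sFlk1 tumours 0.341%, 0.762% and 0.585%, so that the 2 ranges were apart, sFlk1 below. Of all 8576 bins, 8.24% showed the same lack of overlap in that direction. The Pcdhb bin was the lowest of the 3 in 5 tumours.

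At the third bin, with Pcdhga1 and most other Pcdhg first exons, wild-type tumours held 1.18%, 0.677% and 0.754%, and heterozygous tumours 0.665%, 0.785%, 1.27% and 0.610%. Empty vector tumours held 1.66%, 0.699% and 1.58%, and sFlk1 tumours 0.898%, 0.641% and 1.85%. Groups overlapped in both models. The highest value of all 39 was that of sFlk1 tumour 3 (1.85%, against 0.898% and 0.641% in the others of its group).

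At the fourth bin, wild-type tumours held 4.00%, 2.78% and 3.82%, and heterozygous tumours 3.94%, 4.01%, 3.87% and 4.66%. Empty vector tumours held 3.06%, 4.69% and 3.12%, and sFlk1 tumours 1.78%, 1.84% and 4.25%. Groups overlapped in both models. The sFlk1 group was split: tumours 1 and 2 were the lowest of the 13, while tumour 3 was the third highest. For the group this gave an SD of 1.41 percentage points, against 0.365 in heterozygous tumours.

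**Figure D2:**
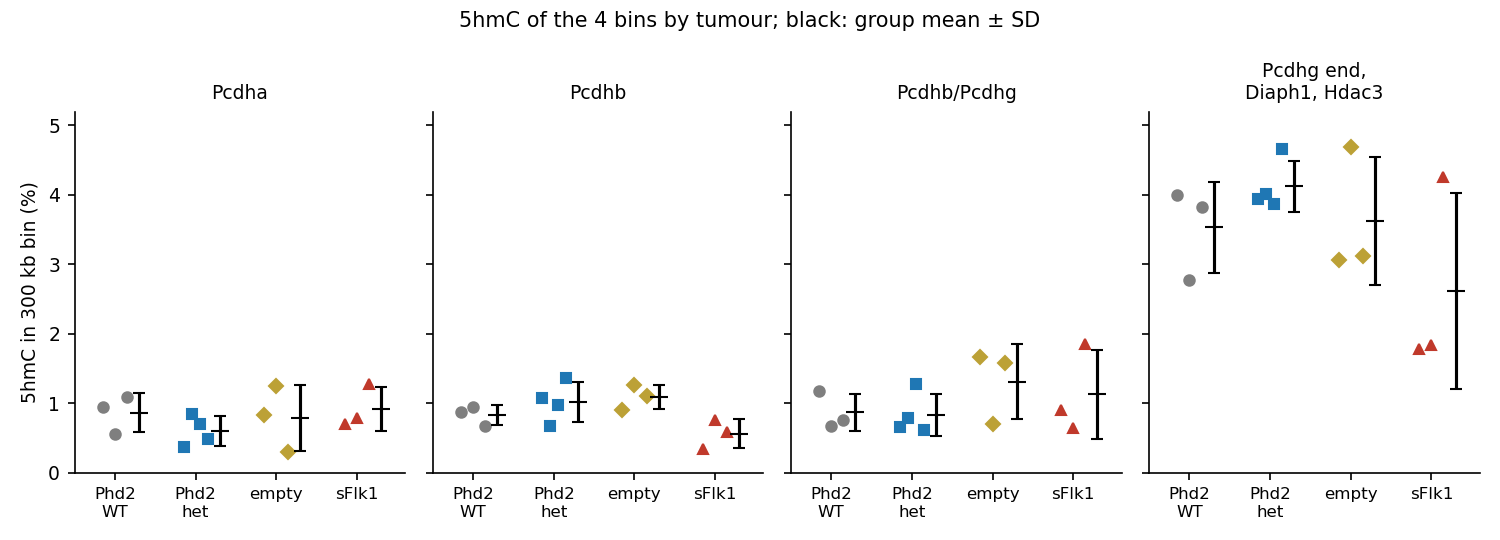
5hmC percentage (y axis) of the 4 locus bins, one panel per bin, with a point per tumour by group (x axis) and the group mean ± SD in black. In the first 3 panels the points lie under 1.86%, and in the fourth between 1.78% and 4.69%.

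The flanking bins lay above the 3 low bins on both sides, though the one next to Pcdha held only 1.12 times the mean of all bins. Towards lower coordinates, the bin of Nrg2, a ligand of ErbB receptors, and Pura held 6.39% ± 1.79 (SD over 13 tumours). The bin of Hbegf, another ErbB ligand, with Pfdn1 and Cystm1 held 5.52% ± 1.41. The bin next to Pcdha, with 15 protein-coding genes including the monocyte receptor gene Cd14 and the histidyl-tRNA synthetase genes Hars and Hars2, held 2.93% ± 0.851. Towards higher coordinates, the bin of the non-clustered protocadherin genes Pcdh1 and Pcdh12 held 4.32% ± 1.33. The bin of Ndfip1 and Spry4, an inhibitor of receptor tyrosine kinase signalling, held 4.91% ± 1.43, and that of Fgf1 5.67% ± 1.25. The mean over the 13 tumours thus rose with distance on both sides within this window. In wild-type tumours it did not rise steadily, with 1.80%, 5.31% and 5.02% towards lower and 3.92%, 3.88% and 4.56% towards higher coordinates, from the nearest bin outwards. Of the 6 flanking bins, Cd14's is the nearest to the low bins and the lowest, with 1.35% in wild-type tumour 2.

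Set against the rest of the genome, the Pcdha bin held 0.299 times, the Pcdhb bin 0.341 times and the third bin 0.392 times the mean of all bins. In the median tumour, 16.1%, 20.6% and 19.4% of all bins lay below them. In the tumour where each ranked highest, 32.3%, 37.8% and 44.2% did, so they were not among the lowest bins in every tumour. On chromosome 18, 28, 37 and 47 of 293 bins had a lower mean over the 13 tumours. Low bins of chromosome 18 mostly hold few genes. Of its 44 bins with a mean under 1%, 34 held no protein-coding gene, and 2 held 10 or more, namely the Pcdha and the Pcdhb bin. The chromosome has 4 bins with 10 or more protein-coding genes in all, the 3 low bins of the locus (14, 22 and 22 genes) and the Cd14 bin beside them (15 genes).

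Over the whole genome, 428 bins held 10 or more protein-coding genes, and their median 5hmC was 3.28%. The 3 low bins ranked behind 39, 48 and 55 of them from the lowest. A set of these gene-rich bins was made up, by at least 50% of the genes, of symbols that share their first 4 letters, a simple mark of gene families in arrays. This grouping was chosen after the values were seen and has no test. There were 99 such bins, with a median of 0.976%, against 3.62% in the other 329. Olfactory receptor bins (Olfr) made up 64 of them, with a median of 0.746% and a range from 0.339% to 4.18%. The vomeronasal receptors (Vmn1r, 2 bins, 0.722%), a bitter taste receptor bin (Tas2r, 0.813%), a keratin-associated protein bin (Krtap, 0.978%) and a bin of late cornified envelope genes (Lce1, 1.00%) lay near the 3 protocadherin bins (0.779% to 1.02%). Family bins were not all low. A bin of alpha interferon genes (Ifna) reached 5.61% and a bin of acyl-CoA thioesterase genes (Acot) 5.56%. Of the 56 gene-rich bins at or below the third protocadherin bin, 53 were family bins. These 53 include 43 Olfr bins and the 3 protocadherin bins themselves. Most of the other families had no bin that low.

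**Figure D3:**
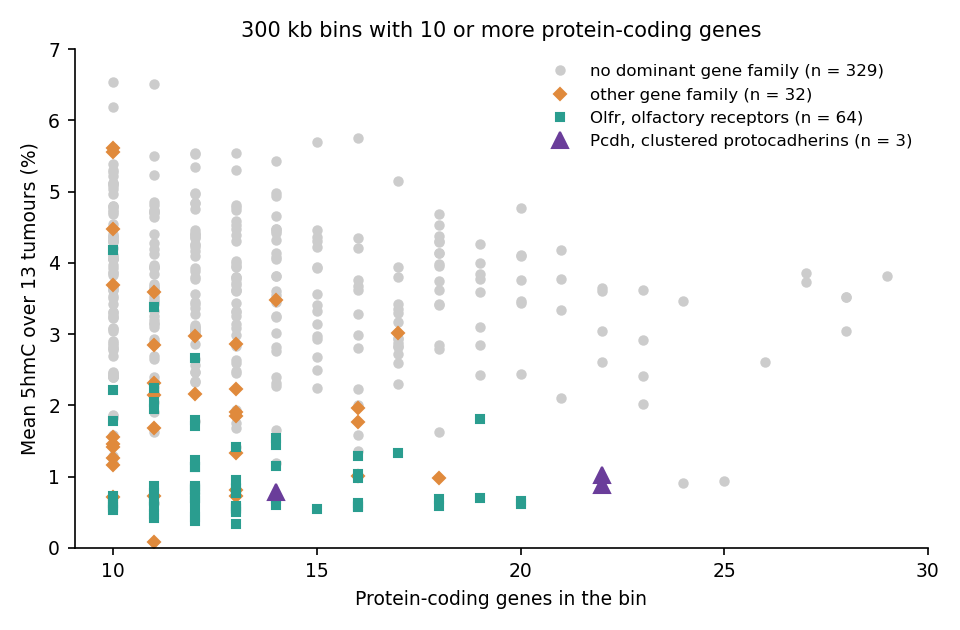
Mean 5hmC over 13 tumours (y axis) against the number of protein-coding genes (x axis) for the 428 bins with 10 or more such genes, coloured by whether at least 50% of the genes share the first 4 letters of their symbol. The 3 protocadherin bins (triangles) lie between 0.779% and 1.02%, among the olfactory receptor bins and below most bins without a dominant family.

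Other gene arrays gave a wider spread of levels. The 39 Hox genes, developmental transcription factors and Polycomb targets, lay in 7 bins with means from 1.16% (the Hoxc bin) to 3.66%. The mean over those bins was between 1.57% and 2.38% in each of the 13 tumours, above the low protocadherin mean of the same tumours, which was 0.645% to 1.24%. This did not hold for each Hox array. The Hoxc bin held 1.60%, 1.29%, 0.995% and 0.732% in wild-type, heterozygous, empty vector and sFlk1 tumours. The low protocadherin means were 0.856%, 0.820%, 1.06% and 0.872%, so Hoxc lay below them in both groups of the plasmid model. The Klra genes, which encode natural killer cell receptors, had 11 of 13 in bins that were kept. These 4 bins held 0.874% ± 0.168 (SD, n = 3) in wild-type and 1.97% ± 0.617 (SD, n = 4) in heterozygous tumours. They held 1.39% ± 0.401 (SD, n = 3) in empty vector and 0.892% ± 0.270 (SD, n = 3) in sFlk1 tumours. In wild-type and sFlk1 tumours the mean of the Klra bins was thus near that of the low protocadherin bins. It averages unlike bins, with 0.391%, 0.582%, 0.677% and 1.85% in wild-type tumours. In sFlk1 tumours the same bins held 0%, 0.546%, 1.12% and 1.90%, the first of them, with Klra4, at 0% in every tumour. The Ugt1a genes, which like Pcdha join alternative first exons to shared constant exons, lay in 2 bins with 3.03% and 3.54%. An arrangement of variable first exons was thus found at a low level in Pcdha and at a higher one in Ugt1a. In either comparison 0 of the 13 bins of these arrays passed with limma. At an unadjusted p under 0.05 there were 2 of the 13 in the Phd2 model (10.8% of all bins) and 1 in the plasmid model (7.18% of all bins), all of them Klra bins. Among those with the smallest p in the Phd2 model were the bin of Klra4, Klra5, Klra6, Klra8 and Klra9 (2.78% ± 1.71 in heterozygous against 0.391% ± 0.677 in wild-type tumours, SD, n = 4 and 3) and the Ugt1a10 bin (3.05% ± 1.07 against 4.48% ± 1.42). In the plasmid model they included the Klra2 bin (1.90% ± 0.693 in sFlk1 against 3.94% ± 0.883 in empty vector tumours, SD, n = 3 and 3) and the Ugt1a1 bin (3.22% ± 1.09 against 4.22% ± 0.731).

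Heterozygous and wild-type tumours were compared to see whether 5hmC differs with better oxygenation. At the locus, the mean over the 4 bins was 1.64% ± 0.121 (SD, n = 4) against 1.53% ± 0.260 (SD, n = 3), a difference of 0.120 percentage points (SE 0.162). Its sign was not stable: the difference was -0.180 relative to each tumour's mean and -0.0229 without wild-type tumour 2. With limma, 0 of the 4 bins passed after Benjamini-Hochberg adjustment over all bins (adjusted p = 0.766 to 0.987), where the share passing among all 8576 bins was 0%. At an unadjusted p under 0.05, 0 of the 4 passed against 10.8% of all bins (930). The difference was -0.264 percentage points at Pcdha (limma 95% interval -0.898 to 0.370), 0.191 at Pcdhb (-0.437 to 0.818), -0.0363 at the third bin (-0.792 to 0.719) and 0.588 at the fourth (-0.796 to 1.97). These intervals leave room for differences in either direction, so the bins are not shown to be equal between the groups.

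Around the locus the heterozygous tumours held more 5hmC, as they did in the mean over all bins. That genome-wide mean was 2.42%, 2.18% and 2.41% in wild-type tumours. In heterozygous tumours it was 2.95%, 3.17%, 2.81% and 2.54%, without overlap. The mean of the 6 flanking bins was 4.25%, 3.53% and 4.46% in wild-type tumours and 5.83%, 7.17%, 5.88% and 5.34% in heterozygous tumours, and the groups did not overlap. The difference of those means was 1.97 percentage points (SE 0.483). In 3 of the 6 flanking bins and 0 of the 4 locus bins every heterozygous tumour lay above every wild-type tumour, against 11.0% of all bins. That share covers bins of every level, and the share among bins as high as the flanks was not counted. The 3 were the Nrg2 bin (8.19% ± 1.77 against 5.02% ± 0.819, SD, n = 4 and 3), the Cd14 bin (3.59% ± 0.295 against 1.80% ± 0.393) and the Pcdh1 bin (5.76% ± 0.559 against 3.92% ± 1.41). With limma these flanking bins did not pass (adjusted p = 0.324, 0.337 and 0.376). Their unadjusted limma p was 0.00309, 0.00421 and 0.0168. At the Ndfip1 and Spry4 bin, where the groups overlapped, it was 0.00694 (adjusted p = 0.342). The Hbegf and Fgf1 bins had 0.293 and 0.0529. Of all bins, 10.8% had an unadjusted p under 0.05.

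Within each tumour, the flanks therefore stood further above the low bins in the heterozygous group. The ratio of the flank mean to the mean of the 3 low bins was 4.25, 4.86 and 5.31 in wild-type and 8.26, 9.35, 5.98 and 6.50 in heterozygous tumours. The ratio was higher in every heterozygous tumour than in any wild-type tumour. How often other bins of these levels give such a ratio was not counted. Between the group means the flanks differed by 1.97 percentage points (SE 0.483) and the low bins by -0.0366 (SE 0.0992). In single tumours the low bins also moved the ratio. Heterozygous tumours 1 and 3 had flanks of 5.83% and 5.88%, with low bins of 0.706% and 0.983%. The difference between low bins and flanks was not tested, as both were seen before they were chosen. Across the genome, bins of higher level had larger differences. In the 2070 bins with a mean from 0.6% to 1.4%, the median difference between heterozygous and wild-type tumours was 0.0468 percentage points, and in the 4761 bins from 2% to 7% it was 0.807. The low bins are among the former, and all 6 flanking bins and the fourth locus bin among the latter.

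**Figure D4:**
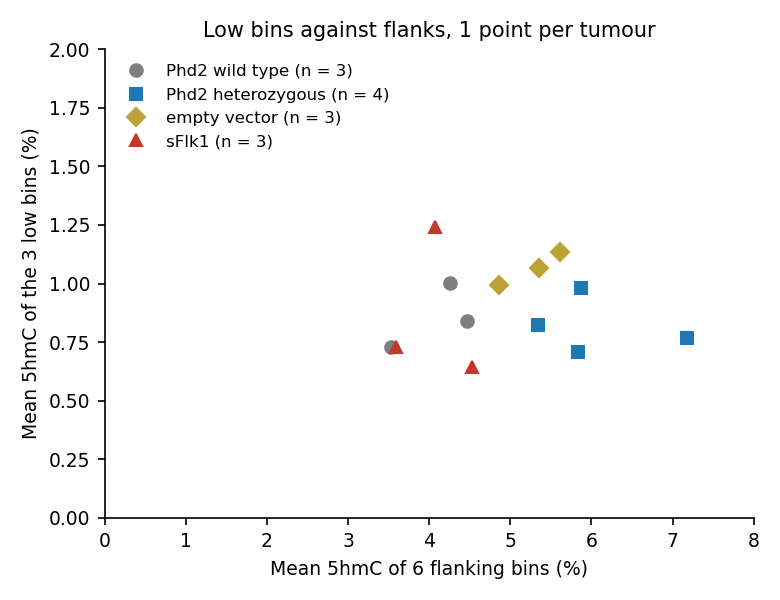
Mean 5hmC of the 3 low bins (y axis, percent) against the mean of the 6 flanking bins (x axis, percent), with a point per tumour. Heterozygous tumours (5.34% to 7.17%) lie to the right of wild-type tumours (3.53% to 4.46%) and at a like height.

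In the plasmid model the question is whether deeper hypoxia goes with a different 5hmC level. The mean over the 4 locus bins was 0.927%, 1.01% and 1.99% in sFlk1 tumours and 1.62%, 1.97% and 1.52% in empty vector tumours. The groups overlapped through sFlk1 tumour 3, which had the highest mean of the 13. The difference was -0.395 percentage points (SE 0.369), and -0.736 without sFlk1 tumour 3. With limma, 0 of the 4 bins passed (adjusted p = 0.740 to 0.954), where 1 of 8576 bins passed (0.0117%), and 0 of the 4 had an unadjusted p under 0.05, against 7.18% of all bins. By bin, the difference was 0.134 percentage points at Pcdha (limma 95% interval -0.544 to 0.812), -0.530 at Pcdhb (-1.20 to 0.141), -0.182 at the third bin (-0.990 to 0.625) and -1.0 at the fourth (-2.48 to 0.478).

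Among the flanking bins, 3 of 6 had every sFlk1 tumour below every empty vector tumour, as did 1 of the 4 locus bins, that of Pcdhb. The share of all bins was 8.24%, and that among bins as high as the flanks was not counted. These flanking bins were that of Hbegf (3.97% ± 0.863 against 6.32% ± 1.25, SD, n = 3 and 3), that of Ndfip1 and Spry4 (3.79% ± 0.159 against 5.30% ± 1.21) and that of Fgf1 (5.18% ± 1.12 against 6.43% ± 0.627). None passed with limma (adjusted p = 0.626, 0.717 and 0.790). Of the 6 flanking bins only that of Hbegf had an unadjusted limma p under 0.05 (0.0179), against 7.18% of all bins. The mean over all 6 flanking bins was 4.53%, 3.59% and 4.07% in sFlk1 tumours and 5.61%, 5.35% and 4.86% in empty vector tumours, without overlap. The mean over all bins of the genome did not overlap either. It was 2.39%, 2.48% and 2.52% in sFlk1 tumours and 2.86%, 2.61% and 2.57% in empty vector tumours. In ratio to the 3 low bins the flanks stood at 7.02, 4.91 and 3.28 in sFlk1 tumours and at 4.94, 5.02 and 4.90 in empty vector tumours. The empty vector tumours were close to each other, and the sFlk1 tumours spread on both sides of them.

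**Figure D5:**
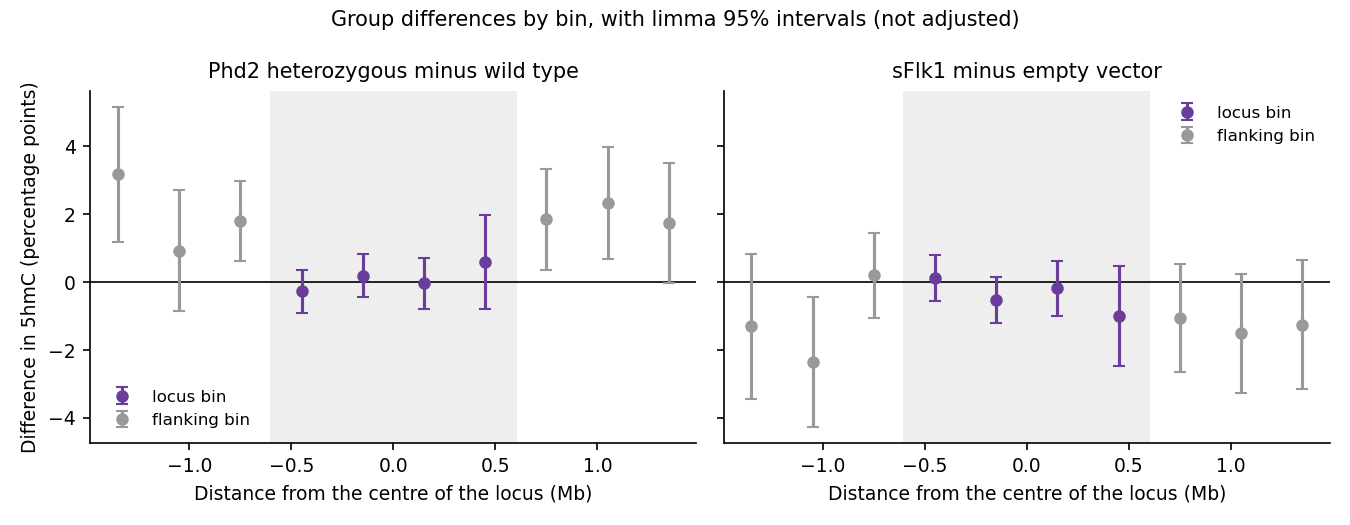
Difference in 5hmC between groups in percentage points (y axis) for each of the 10 bins by distance from the centre of the locus in Mb (x axis), with limma's 95% interval, unadjusted. The 4 locus bins (purple) lie between -0.264 and 0.588 in the Phd2 model and between -1.0 and 0.134 in the plasmid model, and all 4 intervals include 0 in both.

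The non-clustered protocadherins and large cadherins (Pcdh1 to Pcdh20, Fat, Dchs and Celsr genes, 21 genes in 20 bins) spanned a wide range of levels, from 0.487% at the Pcdh11x bin to 5.66% at the Celsr2 bin, with a median of 2.34%. In heterozygous tumours, 16 of the 21 genes had a higher mean, where 75.1% of all bins did. Of their 20 bins 0 passed with limma, and 3 had an unadjusted p under 0.05, against 10.8% of all bins. The median difference of those bins was 0.247 percentage points, against 0.385 over all bins. The smallest p in the list belonged to Pcdh1 and Pcdh12, which share the flanking bin given above, and the next to Celsr2, a planar polarity cadherin gene (6.48% ± 0.614 against 4.77% ± 0.856, SD, n = 4 and 3, limma adjusted p = 0.429). In sFlk1 tumours, 12 of 21 had a lower mean, where 59.5% of all bins did, and 0 passed with limma. An unadjusted p under 0.05 was found in 1 bin, against 7.18% of all bins. The median difference was -0.135 against -0.146 over all bins. In both models these shares were near those of all bins. There the smallest p was at Fat1, an atypical cadherin gene (2.48% ± 0.301 against 4.03% ± 0.608, SD, n = 3 and 3, limma adjusted p = 0.629), followed by Pcdh10 (1.45% ± 0.342 against 2.43% ± 0.526, limma adjusted p = 0.705).

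The genes of 16 known regulators of the cluster or of DNA methylation, among them CTCF, cohesin subunits and loaders, DNA methyltransferases, TET enzymes, SMCHD1 and SETDB1, lay in bins with a median of 4.00%. None of these bins was as low as the low bins of the locus, the lowest being at 2.41%. In heterozygous tumours, 15 of the 16 had a higher mean, and 0 passed with limma (6 at an unadjusted p under 0.05, against 10.8% of all bins). The median difference was 1.03 percentage points. These bins lay between 2.41% and 6.58%. Among all bins from 2% to 7% the median difference was 0.807 and 88.9% were higher, against 0.385 and 75.1% over all bins. How many bins from 2% to 7% had an unadjusted p under 0.05 was not counted, so the 10.8% is not matched for level. The smallest p belonged to Tet3 (6.0% ± 0.912 against 3.51% ± 0.509, SD, n = 4 and 3, limma adjusted p = 0.324) and to Smc3, a cohesin subunit gene (5.69% ± 1.03 against 3.71% ± 1.42, limma adjusted p = 0.396). The exception was Dnmt3b, with 2.52% ± 0.996 against 3.33% ± 0.471. In sFlk1 tumours, 12 of 16 had a lower mean and 0 passed with limma (1 at an unadjusted p under 0.05, against 7.18% of all bins). A lower mean was found in 67.6% of the bins from 2% to 7% and in 59.5% of all bins. Rad21, the gene of another cohesin subunit, held 2.17% ± 0.715 against 3.41% ± 0.311 (SD, n = 3 and 3, limma adjusted p = 0.686), and Smchd1 2.86% ± 1.37 against 3.78% ± 0.639 (limma adjusted p = 0.828).

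Bins of marker genes of other cell types were read beside the locus, although a DNA mark does not identify a cell. The median bin of 4 neuronal genes (Map2, Rbfox3, Syn1 and Tubb3) held 2.20% in wild-type, 3.22% in heterozygous, 2.29% in empty vector and 2.79% in sFlk1 tumours. Luminal epithelial bins (Krt8, Krt18, Epcam, Gata3, Elf5 and Cdh1) held 4.27%, 6.07%, 5.85% and 5.15% in the same order. Endothelial bins (Pecam1, Cdh5, Kdr and Tek) held 3.32%, 3.41%, 3.15% and 3.00%, and leukocyte bins (Ptprc, Itgam, Cd3e and Csf1r) 3.10%, 3.70%, 3.01% and 3.21%. With limma, 0 of these 17 bins passed in either comparison, and at an unadjusted p under 0.05 there were 4 in the Phd2 model (10.8% of all bins) and 0 in the plasmid model (7.18% of all bins). The part of the tumours' cell makeup in the values of the locus was not tested.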

How the data were processed

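The values were 5hmC percentages of 13 tumours in bins of 300 kb, in the one table the authors deposited, in percent. The submitters' processing notes list Bismark 0.13.1 and mm9 without saying what each was used for. Conversion rates, the way sites were pooled into bins and a minimum of reads were not given in the sources used here, so depth, and the precision it gives, is unknown. Per the labels' protocols, DNA was extracted with 200 µM DFO, an iron chelator, in the buffers.

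The last bin of chromosome 18 ends at 90702639, the length in GRCm38 and not in mm9. Coordinates are therefore given as GRCm38. Gene density followed 5hmC on that chromosome best without a shift (Spearman rho across 293 bins 0.484, against 0.359 and 0.388 with genes moved by 1 bin). That check moves genes in steps of 300 kb and cannot tell assemblies apart that differ by less than 1 bin. Genes come from the RefSeq table of GRCm38.p6, and each belongs to the bin with most of its body. All genes of the fixed lists matched.

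Sample titles gave the groups, and descriptions in the labels gave the columns. Chromosome Y, the mitochondrial genome and bins at 0 throughout were dropped, leaving 8576 bins. limma 3.58.1 (R 4.3.3) compared the groups on the percent scale, in a fit of 4 group means over the 13 tumours with a trend, and Benjamini-Hochberg adjustment over all bins at 0.05. limma assumes a like spread in all groups. Intervals of single bins are not adjusted. Nothing in the labels beyond separate mice marks the samples as independent, and p-values measure the spread between these tumours. The fit was tested on simulated data first. The SE of a mean over bins comes from the group SDs.

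The members, lists and tests were chosen with earlier results of these data known. Bins named are the 4 members, 6 flanking bins, the 3 bins most like the locus mean by Pearson r and, per list, the 2 with the smallest p in each comparison, of which 1 bin is not reported here. The grouping by gene family and the level classes were added later. Alternatives were log2 (percentage + 0.5), scaling to the median, fits of the 2 groups compared, no trend, tumour weights, bins above 0 in all tumours, the replicate number as a block, each tumour left out, other windows and other flanks.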

Additional observations from a re-analysis of the deposited data

How the results depend on the processing

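With limma, 0 of the 4 locus bins passed in either comparison under any alternative run, with adjusted p from 0.607 to 1.0 in the Phd2 model and from 0.658 to 0.999 in the plasmid model. Small differences changed sign. Scaling to the tumours' median turned the Phd2 difference at the fourth bin to -0.0191, and a replicate block, which in effect drops heterozygous tumour 4, turned that at the third bin to 0.0382. With 1 tumour left out, the Phd2 difference ran from -0.183 to 0.118 at the third bin, where it was above 0 without wild-type tumour 1 or heterozygous tumour 1 or 4. The sFlk1 difference ran from -0.114 to 0.361 at Pcdha and from -0.544 to 0.0629 at the third bin. Same-numbered tumours did not deviate together (correlations from -0.0934 to -0.00429 in the Phd2 and from -0.0526 to -0.0421 in the plasmid model), so no sign of pairing by number was seen. These are deviations from means of 3 or 4 tumours, and they cannot exclude a shared litter or batch. The block changed no call and left 0 and 1 bins called. On the log2 scale 1 bin was called in the Phd2 model, and leave-one-out counts ran from 0 to 1 there (1 without heterozygous tumour 3) and from 1 to 4 in the plasmid model (2 without empty vector tumour 2, sFlk1 tumour 2 or sFlk1 tumour 3, and 4 without sFlk1 tumour 1).

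The locus mean depends on the fourth bin. With the 3 low bins alone, an alternative chosen after seeing the data, it was 0.856% in wild-type, 0.820% in heterozygous and 1.06% in empty vector tumours. As the median of 4 bins it was 0.934%, 0.951% and 1.29%, and with the window moved by 1 bin 2.29%, 2.94% and 2.53%. Relative to each tumour's mean, the heterozygous value was 1.51% and the Phd2 difference -0.180. That difference was 0.648 with the window moved. The locus lay below its flanks under every alternative. In wild-type, heterozygous, empty vector and sFlk1 tumours the gap was -2.56, -4.41, -3.57 and -2.75 percentage points, and with the window moved -1.18, -2.04, -2.16 and -1.75. With the 3 low bins it was -3.22 in wild-type and -4.21 in empty vector tumours, as a ratio -3.11 in wild-type, and with 10 flanking bins on each side -3.17 in empty vector tumours. With 1 tumour left out, the Phd2 difference of the locus mean ran from -0.0229 to 0.232 and that of sFlk1 from -0.736 to -0.204, furthest without sFlk1 tumour 3. Depth is unknown, so a percentage near 0 cannot be told from one with few reads.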

Other observations

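The 3 bins whose values over the 13 tumours were most like the mean of the 4 locus bins, among 7328 bins above 0 in all tumours, lay on other chromosomes. Of the 4 bins in that mean the fourth varied most, with an SD over the 13 tumours of 0.950 percentage points. The SD of the low bins was 0.310, 0.284 and 0.439. The first, on chromosome 1 from 195000001 to 195300000, holds the complement receptor gene Cr2 and the complement regulator genes Cr1l and Cd46 (Pearson r = 0.831 over 13 tumours). The second, on chromosome 3 from 66000001 to 66300000, holds Ptx3, which encodes a pentraxin of innate immunity, and Veph1 (r = 0.829). The third, on chromosome 10 from 85200001 to 85500000, holds no protein-coding gene (r = 0.815). The 20th highest r was 0.757, so the first 3 stand little apart from the bins behind them. These are descriptions over tumours of 4 groups, and no p was computed.

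In the mean over the 3 low bins and at the fourth bin, the SD was larger in sFlk1 tumours than in the other 3 groups, which was not so at the Pcdha or the Pcdhb bin. Tumour 3 held 1.24% over the 3 low bins, against 0.645% and 0.731% in tumours 1 and 2, and that was the highest of the 13. Its flanking bins towards lower coordinates were the lowest of the 13, with 3.42%, whereas those towards higher coordinates held 4.71%, above 4.14% and 3.15% in tumours 1 and 2. Its low bins came to 30.5% of its flank level, and in the other 12 tumours that share ran from 10.7% to 23.6%. The genome-wide mean of sFlk1 tumour 3, 2.52%, was close to the 2.39% and 2.48% of the others.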
